A study of Mus musculus with 4 samples.

Results

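Ldhc-rich cells without spermatid transcripts were 84 of the 1249 sorted testis cells of the series (6.73%, exact 95% binomial interval 5.40 to 8.26%). A cell belonged to them when it held at least 3 unique molecular identifiers (UMIs, the tags that mark single transcript molecules) of Ldhc, fewer than 10 UMIs summed over Prm1, Prm2, Tnp1, Tnp2, Oaz3 and Smcp, and fewer than 3 UMIs of Clu. Plzf +/+ and Plzf lu/lu mice of 4 wk were compared, and every animal carried the Eomes-tdTomato knockin allele, from which tdTomato+ cells had been sorted singly into wells. Plzf encodes a zinc finger factor of undifferentiated spermatogonia, and lu (luxoid) is its loss-of-function allele. The sort read the reporter protein and not the Eomes transcript, and the labels name no animals, so the p-values measure the spread between these libraries, which may be technical. The +/+ genotype filled plates 1 and 2, lu/lu filled plate 3, and both shared plate 4. A library here is the cells of 1 genotype on 1 plate.

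Spermatogonia divide by mitosis and express receptors and factors such as GFRA1, RET, ID4 and PLZF. After they enter meiosis, spermatocytes pass through a long pachytene stage in which they switch on isoforms found only in germ cells, among them LDHC, the testis lactate dehydrogenase, and begin to make parts of the future flagellum. The X chromosome is transcriptionally silenced in pachytene cells. Protamines and transition proteins (Prm1, Prm2, Tnp1, Tnp2) come later, in haploid spermatids.

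The 84 cells came from all 5 libraries. Among Plzf +/+ libraries they were 11 of 317 cells on plate 1, 31 of 303 on plate 2 and 24 of 277 on plate 4. Among Plzf lu/lu libraries they were 14 of 314 cells on plate 3 and 4 of 38 on plate 4. The Ldhc-zero cells used for comparison were the 754 cells with no Ldhc UMI that also lay under the spermatid and Clu limits, and a further 82 cells with at least 3 Ldhc UMIs had 10 or more spermatid UMIs and fewer than 3 of Clu. The median depth was 7537.5 UMIs in the Ldhc-rich cells (range 1342 to 34280), 5446.5 in the Ldhc-zero cells and 9454 in the Ldhc-rich cells with spermatid transcripts. All libraries used the same 384 well barcodes, so 358 barcodes recurred between libraries, and 0 were shared by the libraries of plate 4. On plate 4, 5 cells lay outside the wells that the labels give to their genotype, and 0 of them were Ldhc-rich cells.

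Ldhc itself spanned a wide range, and few cells held most of it. The 84 cells had a minimum of 3, a median of 7 and a maximum of 350 Ldhc UMIs. The 5 cells with most held 45.7% of their 2112 Ldhc UMIs, and 18 cells had 20 or more (Plzf +/+ plate 1 had 2, plate 2 had 7 and plate 4 had 6, while Plzf lu/lu plate 3 had 2 and plate 4 had 1). Just inside the limit stood 20 cells with exactly 3 UMIs, and just outside it stood 55 cells with 2. Averaged per cell, Meig1 stood at 161 CPM (counts scaled to a common total) with 3 Ldhc UMIs and 169 with 2, whereas over summed UMIs it stood at 189 CPM in cells with 3 or 4 and 97.9 in cells with 2. At the other limit, 7 cells had 8 or 9 spermatid UMIs and 5 cells just outside had 10 to 12. The word without therefore means few: 23 of the 84 cells had no UMI of the 6 spermatid genes, and the median was 2.

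**Figure D1:**
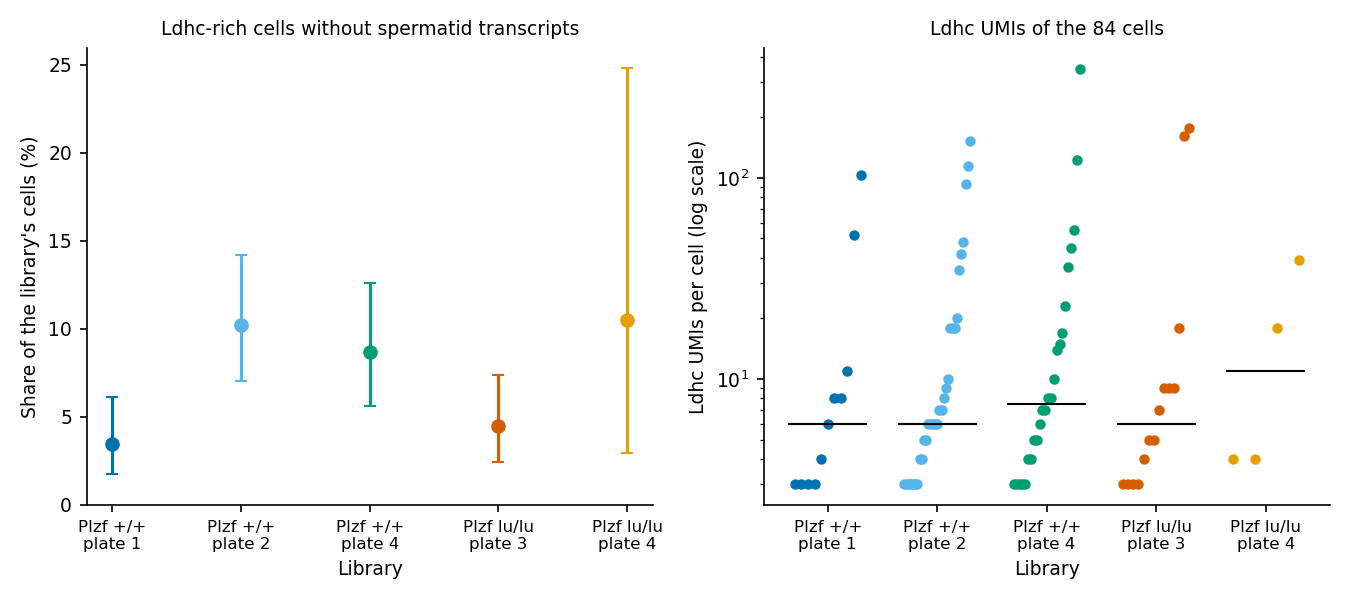
Left, share of each library's cells (%) that were Ldhc-rich without spermatid transcripts, with exact 95% binomial intervals. Right, Ldhc UMIs of each of the 84 cells on a log scale, with the library median as a line. Shares ran from 3.47 to 10.5%, and in every library most cells lay below 20 Ldhc UMIs with 1 or more far above.

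The rule was chosen from these same cells, so the levels of its 8 genes and of the markers Rsph1, Dmrtb1 and Spink2 are given as a description with no test. After UMIs were summed per library and scaled by edgeR's TMM factors, Rsph1, a radial spoke protein of the axoneme, reached 822, 826 and 884 CPM in the Ldhc-rich cells of Plzf +/+ plates 1, 2 and 4 and 625 in Plzf lu/lu plate 3. Its level in the Ldhc-zero cells of the same libraries was 8.61 to 17.2 CPM. Dmrtb1 (DMRT6), a regulator of the exit from mitosis, stood at 201 to 434 CPM against 3.90 to 15.5. Spink2, a serine protease inhibitor of the acrosome, stood at 384 to 827 CPM against 3.61 to 10.8. None of these ranges overlapped. The germ cell genes Dazl and Ddx4 had a UMI in 80 and 72 of the 84 cells (95.2 and 85.7%) and in 94.96 and 82.5% of Ldhc-zero cells.

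Of other cell types, Sertoli markers were the most frequent. All 12 Sertoli genes together gave 148 UMIs in the 84 cells, of which 76 were in 4 cells, or 0.0188% of UMIs (0.0008 to 0.115% by library) against 0.0067% in the Ldhc-zero cells (0.0044 to 0.0135%). A Sertoli UMI was in 34 of the 84 cells (40.5%) and in 195 of 754 Ldhc-zero cells (25.9%), and 3 or more were in 13 and 26 cells. The defining markers Cldn11, Wt1 and Sox9 had a UMI in 6, 2 and 3 of the 84 cells. Macrophage genes were at 0 UMIs, and the Leydig, peritubular, endothelial, T and NK and erythroid lists gave 1 to 11 UMIs in all.

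Transcripts of pachytene spermatocytes and of the flagellum rose together in the Ldhc-rich cells, whereas most transcripts of spermatogonia did not pass the test. The comparison with Ldhc-zero cells was made on sums per library and class, in the 4 libraries with at least 5 cells of each (plate 4 Plzf lu/lu had too few), which hold 80 of the 84 Ldhc-rich cells and 732 of the Ldhc-zero cells, with the library as a block. Beside the 11 rule and marker genes, 8508 genes were tested. At an adjusted p under 0.05 in edgeR's quasi-likelihood test, 1029 were higher (12.1%) and 301 lower (3.54%) in the Ldhc-rich cells. Higher calls fell to 169 with every cell thinned to 2000 UMIs, to 256 with at most 2 spermatid UMIs allowed and to 487 with Ldhc-zero cells matched on depth. Without the cells that held at least 3 UMIs of the Sertoli or of the T and NK cell list, an alternative chosen after seeing the data, 864 genes were higher and 193 lower. Lower calls were less stable, with 23 by DESeq2, 92 without the library block, 19 after thinning, 7 under the stricter spermatid limit, 134 without Plzf +/+ plate 2, 109 without Plzf +/+ plate 4 and 123 without Plzf lu/lu plate 3.

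Among pachytene spermatocyte genes, 13 of 18 passed the filter on low counts and 12 of these were higher (92.3%, against 12.1% of all genes). Their median log2 fold change was 4.52 against -0.10 over all genes tested. Without the filter, 16 of 18 were higher, against 1395 of all 23416 genes. Genes scarce in Ldhc-zero cells, as Crisp2, Clgn and Meig1 were, passed the filter only through the Ldhc-rich cells. Their changes and the filtered counts are therefore given as a description. Crisp2, a cysteine-rich protein of the acrosome and tail, stood at 1074 ± 289 CPM (SD, n = 4) in the Ldhc-rich cells and at 17.0 ± 4.17 in the Ldhc-zero cells, a log2 fold change of 5.97 ± 0.17 (SE). Ybx3, which binds and stores messages in germ cells, stood at 610 ± 133 against 53.9 ± 9.13 CPM. Every library was higher for both genes, with no overlap. Tbpl1, a TBP relative needed in spermiogenesis, changed by 1.90 ± 0.17 (edgeR adjusted p = 4.03e-15) and Clgn, a chaperone for sperm surface proteins, by 3.31 ± 0.19. The heat shock protein gene Hspa2, named after its values were seen, ran from 247 to 440 CPM over the 4 libraries against 14.4 to 26.9.

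The cilia and axoneme list behaved in the same way. Of its 45 genes, 32 were tested and 31 were higher (96.9%, against 12.1% of all genes), with a median of 3.54. Without the filter 39 of 44 were higher, against 1395 of all 23416 genes. The filtered count is a description here too. Meig1, needed to build the manchette and tail, stood at 1766 ± 201 CPM in the Ldhc-rich cells and 25.6 ± 9.27 in the Ldhc-zero cells (log2 fold change 6.13 ± 0.15, n = 4). Ropn1l, of the fibrous sheath and radial spoke, rose by 3.79 ± 0.15 on the log2 scale, Dnah8, a dynein heavy chain, by 2.903 ± 0.191, and Mns1, of the axoneme interior, by 1.36 ± 0.16. Mns1 changed least of these 4 and stood highest in Ldhc-zero cells, at 136 ± 22.5 CPM. As a share of cells, Meig1 had a UMI in 68 of 84 Ldhc-rich cells (81.0%) and in 99 of 754 Ldhc-zero cells (13.1%). At an equal depth of 2000 UMIs these shares were 59.5% of 79 cells and 4.89% of 695 cells.

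The 12 genes with the largest increase were close to absent from the Ldhc-zero cells, and most were of low abundance. Lin7a and Ggn (gametogenetin) had 57 and 50 UMIs in the Ldhc-rich sums and 0 in the Ldhc-zero sums. Against a floor of 3 UMIs over the group they were at least 117-fold and 103-fold higher. Tcp10c and Prss21, a testis serine protease, each had 57 UMIs against 1, a ratio of 351 whose 95% counting interval ran from 60.5 to 14095. Kctd19, which is needed in meiotic metaphase, had 74 against 2 UMIs, and Mroh4 54 against 2. Ankrd7 and Pom121l12 each had 80 against 3 UMIs, Tex22 121 against 4 and CK137956 47 against 1. The most abundant were Spata4, at 356, 398, 523 and 282 CPM in Plzf +/+ plates 1, 2 and 4 and Plzf lu/lu plate 3 against at most 4.81, and Pabpc2, a poly(A) binding protein of the testis, at 310, 497, 837 and 412 against at most 5.38. Genes this low in Ldhc-zero cells pass the filter on low counts only through the Ldhc-rich cells, so how often they were called is no support.

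Several genes of energy metabolism rose, most of them testis isoforms. In the list of lactate, glycolysis and respiratory genes, 22 of 31 were tested, 11 were higher (against 12.1% of all genes) and 1 was lower, with a median of 0.59. Cox8c, the testis form of a cytochrome oxidase subunit, stood at 893 ± 306 CPM against 46.4 ± 5.27 (log2 fold change 4.19 ± 0.17, n = 4, edgeR adjusted p = 3.34e-32), and Cox7b2 rose by 1.22 ± 0.14. The ubiquitous subunit Cox6b1 fell by 0.43 ± 0.13 on the log2 scale (edgeR adjusted p = 0.0141, called in 8 of 17 alternatives), from 563 ± 12.6 to 423 ± 49.1 CPM, and Cox8a did not pass (-0.25 ± 0.12, adjusted p = 0.184). The next genes were named after their values were seen. Pgam2, a phosphoglycerate mutase, ran from 365 to 522 CPM against 4.55 to 8.43, and Pgk2, the testis phosphoglycerate kinase, from 45.7 to 288 against 0.650 to 5.16. The glucose transporter gene Slc2a3 ran from 126 to 279 CPM against 15.6 to 26.9. Ldha ran from 402 to 452 CPM against 32.5 to 49.9, but it neighbours Ldhc on chromosome 7 and is close to it in sequence, so reads of either gene may have been counted for the other and its level is uncertain.

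Early meiotic genes were already present in Ldhc-zero cells. Of 29 genes on the early prophase list 17 were tested, 5 were higher (29.4%, against 12.1% of all genes) and 0 lower, with a median of 0.20. Only 1 of 13 was higher after thinning, against 169 of all 3915 genes, and 1 of 16 under 3 spermatid UMIs, against 256 of 7517. Sycp2, of the chromosome axis, rose from 218 ± 30.8 to 445 ± 153 CPM (1.02 ± 0.15, n = 4, edgeR adjusted p = 1.52e-07), a call lost in 2 of 17 alternatives, after thinning (adjusted p = 0.237) and with at most 2 spermatid UMIs allowed (0.248). Smc1b, the meiotic cohesin, stood at 534 ± 49.3 and 449 ± 66.6 CPM in Ldhc-rich and Ldhc-zero cells and did not pass (adjusted p = 0.177), nor did Sycp1 (0.567) or Tex15 (0.803). Syce1, of the central element, was named after its values were seen and ran from 220 to 382 CPM against 112 to 139. Of 20 spermatid genes only 6 passed the filter on low counts. A gene near 0 in Ldhc-zero cells can pass it only through the Ldhc-rich cells, so their direction is given as a description. Dbil5 was the most abundant of them at 121 ± 29.2 CPM against 31.9 ± 7.09, and Crem, the activator of post-meiotic genes, stood at 77.6 ± 43.8 against 15.7 ± 4.06. The spermatid limit of the rule bounds such levels from above.

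Spermatogonial transcripts were still measured beside these. Of 25 genes on the undifferentiated list, 17 were tested, 0 were higher and 4 lower (23.5%, against 3.54% of all genes), and the median was -0.44 against -0.10 over all genes. All 17 had a change below 0. In Plzf +/+ plates 1, 2 and 4 and Plzf lu/lu plate 3, Gfra1, the GDNF co-receptor, stood at 137, 218, 220 and 151 CPM in the Ldhc-rich cells and at 261, 289, 268 and 156 in the Ldhc-zero cells. It was lower in all 4 libraries but did not pass (log2 fold change -0.39 ± 0.17, edgeR adjusted p = 0.108). Id4 stood at 99.3 ± 15.2 against 104 ± 17.8 CPM (adjusted p = 0.843), Etv5 at 108 ± 26.6 against 116 ± 21.3, and Zbtb16, which encodes PLZF, at 40.3 ± 25.1 against 68.0 ± 30.8 (adjusted p = 0.224). The 4 lower genes were Ret, the GDNF receptor kinase (45.7 to 73.9 against 96.1 to 149 CPM, log2 fold change -1.01 ± 0.24, edgeR adjusted p = 7.43e-04), Foxo1, Lhx1 and Upp1. They were named after their values were seen, and Upp1 was not lower in Plzf +/+ plate 1 (54.8 against 49.4 CPM). The count of lower genes was unsteady. It was 8 of 25 without the filter on low counts, against 815 of all 23416 genes. By DESeq2 it was 1 of 17 (23 of all 8508 genes), under 3 spermatid UMIs 1 of 17 (7 of 7517) and after thinning 0 of 11 (19 of 3915). Leaving out Plzf +/+ plate 4 gave 1 of 17 (109 of 8716), and leaving out Plzf +/+ plate 1 gave 2 of 17 (228 of 8792).

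Eomes (the locus of the tdTomato reporter), T and genes of later spermatogonia gave a mixed picture. Eomes had a UMI in 2 of 84 Ldhc-rich cells (2.38%, exact 95% interval 0.290 to 8.34%) and in 56 of 754 Ldhc-zero cells (7.43%, 5.66 to 9.54%), and T in 9 of 84 and 92 of 754. In summed UMIs T was lower in all 4 libraries (11.3 ± 8.89 against 31.5 ± 20.6 CPM) and did not pass (log2 fold change -1.36 ± 0.50, edgeR adjusted p = 0.0554). At 2000 UMIs per cell Eomes was in 0 of 79 Ldhc-rich cells, with an exact 95% interval that reaches 4.56%. It was in 3.17% of 695 Ldhc-zero cells, so a difference was not detectable at this depth. Of 10 genes on the differentiating list 8 were tested, 0 were higher and 2 lower (25%, against 3.54% of all genes), and 0 were lower by DESeq2, after thinning, under 3 spermatid UMIs and without Plzf lu/lu plate 3. Ccnd2, a D cyclin, fell from 297 ± 30.6 to 192 ± 47.7 CPM (-0.62 ± 0.16, n = 4, edgeR adjusted p = 0.00304, called in 12 of 17 alternatives), and Sohlh1 from 159 ± 18.8 to 107 ± 49.6 (adjusted p = 0.0477, range over 17 alternatives 0.00511 to 0.911). Kit and Stra8 did not pass, at adjusted p = 0.912 and 0.716. None of 24 S phase genes tested passed in either direction (edgeR, median -0.05), and 4 of 25 genes of G2 and mitosis were higher (Aurka, Ccnb2, Cdc20 and Plk1), a share of 16% that is near the 12.1% of all genes, with a median of -0.08.

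**Figure D2:**
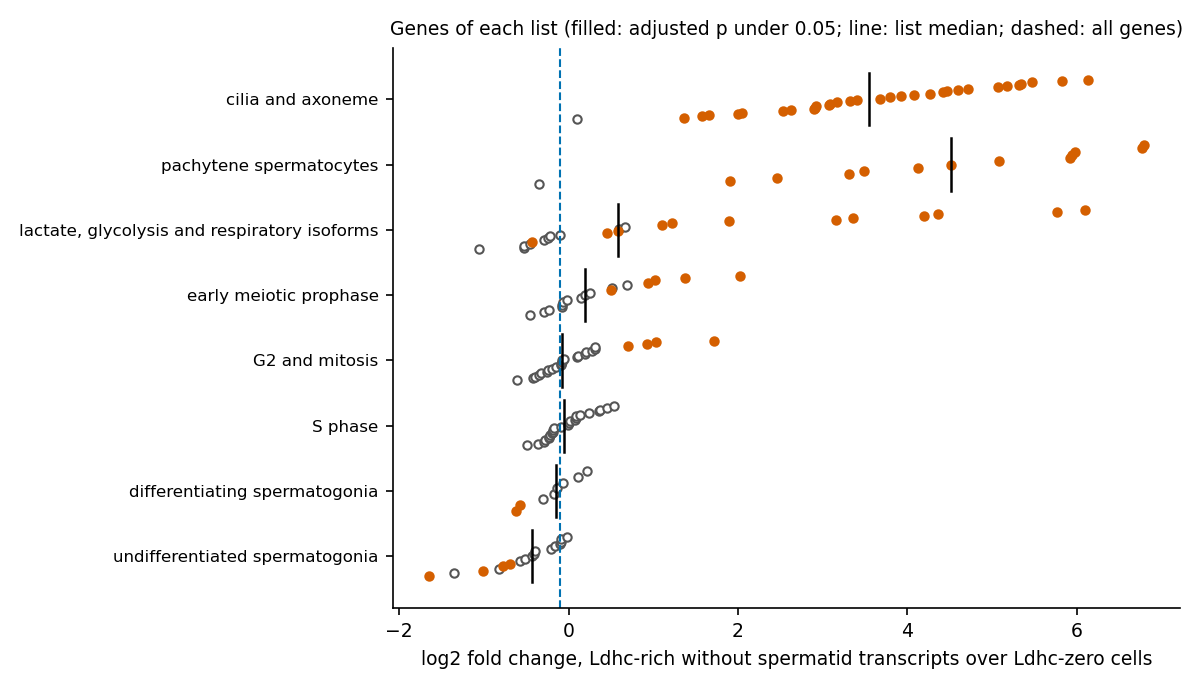
Each point is a gene of a list, by its log2 fold change between Ldhc-rich cells without spermatid transcripts and Ldhc-zero cells. Filled points passed an edgeR adjusted p of 0.05, solid lines are list medians and the dashed line is the median of all genes (-0.10). All but 1 gene of the cilia list and 1 of the pachytene list lie to the right of 1, and every gene of the undifferentiated list lies to the left of 0.

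The lower genes with the largest change were Zbtb33 (Kaiso, a methyl-CpG binding protein, on the X chromosome), Adar, Nipa1, Heg1, Agps, Smarcd3, Ibtk and Ahcy. Zbtb33 changed most of these 8, at 0, 32.9, 15.7 and 34.3 CPM in the Ldhc-rich cells of Plzf +/+ plates 1, 2 and 4 and Plzf lu/lu plate 3, against 72.1, 87.2, 72.2 and 57.6 in Ldhc-zero cells (log2 fold change -1.69 ± 0.36, edgeR adjusted p = 1.80e-04). The groups did not overlap, and the call held in 14 of 16 alternatives. The others changed by -1.20 to -1.56 and held in 7 (Ibtk) to 13 (Agps) alternatives. Ahcy, which breaks down S-adenosylhomocysteine, stood at 23.2 ± 12.3 against 55.0 ± 16.9 CPM.

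X-linked transcripts took a smaller share of the Ldhc-rich cells. X chromosome genes, placed by RefSeq symbol, gave 2.39% of mapped UMIs there, 3.02% in Ldhc-zero cells and 1.87% in Ldhc-rich cells with spermatid transcripts. By library the Ldhc-rich share was 2.59, 2.19 and 2.26% in Plzf +/+ plates 1, 2 and 4 and 2.59 and 2.91% in lu/lu plates 3 and 4, below the Ldhc-zero share of 2.93, 3.01, 2.96, 3.17 and 3.02% in every library. Of 280 X genes tested, 0 were higher and 20 lower (7.14%, against 3.54% of all genes), with a median of -0.32 against -0.10. Lower X genes numbered 2 by DESeq2, 0 after thinning, 0 under 3 spermatid UMIs, 9 without Plzf +/+ plate 2, 8 without Plzf +/+ plate 4 and 11 without Plzf lu/lu plate 3. Mitochondrial genes gave 4.58% of UMIs against 5.17%, and ribosomal protein genes 7.12% against 8.71%.

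These means hid a gradient among the 84 cells. When cells under the spermatid and Clu limits were split by their Ldhc UMIs, Meig1 stood at 23.4 CPM of summed UMIs with 0, 35.8 with 1, 97.9 with 2, 189 with 3 or 4, 394 with 5 to 9, 828 with 10 to 19 and 3617 with 20 or more. Crisp2 climbed over the same steps from 15.6 to 2081, and Hspa2 from 19.4 to 674. The steps have no natural break at the limit of 3 UMIs. The X chromosome share stayed between 2.87 and 3.03% up to 9 Ldhc UMIs, was 2.63% in the 11 cells with 10 to 19 and 1.63% in the 18 cells with 20 or more. Gfra1 went up and down over the steps, at 230, 234, 232, 165, 246, 140 and 149 CPM from 0 to 20 or more Ldhc UMIs, and Sall4 at 168, 185, 130, 151, 154, 102 and 82.6. Depth moved with these steps too, most at the last: the median was 5446.5 UMIs with 0 Ldhc UMIs, 5995 to 7048 over the steps from 1 to 19, and 14730.5 in the 18 cells with 20 or more, and its part in the result was not tested.

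**Figure D3:**
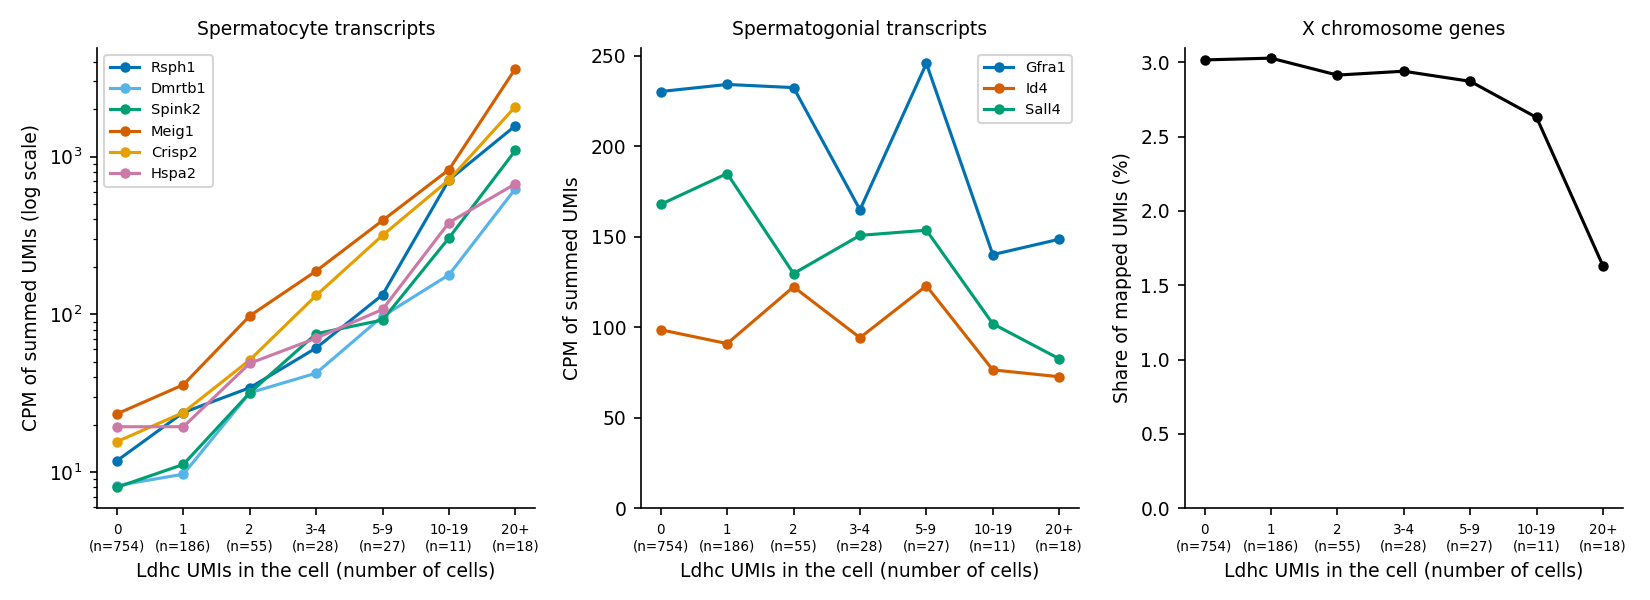
Levels by the number of Ldhc UMIs in a cell, for cells under the spermatid and Clu limits, with the number of cells per step below each. Left, 6 spermatocyte transcripts (CPM, log scale), centre, 3 spermatogonial transcripts (CPM), right, share of mapped UMIs from X genes (%). Spermatocyte transcripts climb at each step from 2 UMIs on, and the X share drops to 1.63% in the last.

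Both programs were read in the same wells. Gfra1 had a UMI in 51 of the 84 cells (60.7%) and in 426 of 754 Ldhc-zero cells (56.5%), and at 2000 UMIs per cell in 29.1% and 35.0%. Among the 18 cells with 20 or more Ldhc UMIs, 15 had a Gfra1 UMI, 13 a Sall4 UMI, 11 an Id4 UMI and 9 each a Ret and a Zbtb16 UMI. Such counts grow with depth, and these 18 cells had a median of 14730.5 UMIs against 5446.5 in Ldhc-zero cells. Their levels in summed UMIs were below those of Ldhc-zero cells, at 149 against 230 CPM for Gfra1, 82.6 against 168 for Sall4 and 72.7 against 98.6 for Id4. Cells with a Gfra1 UMI had a median Ldhc level of 1265 CPM and gave 0.175% of their UMIs to pachytene genes, and the 33 cells without one had 1350 CPM and 0.135%. Restricted to cells with a Gfra1 UMI in both classes, an alternative chosen after seeing the data, 928 genes were higher and 172 lower. They included 849 of the 1029 higher genes (82.5% of these and 91.5% of the 928) and 122 of the 301 lower genes (40.5% of these and 70.9% of the 172). The restricted fit used part of the same cells, so this overlap is a description. A well that received more than 1 cell, or RNA from another cell, and a cell that held both sets of transcripts cannot be told apart here, and no doublets were removed.

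Cell by cell, pachytene genes took a median of 0.161% of UMIs in the Ldhc-rich cells (0.0212 to 1.48%) and 0.0288% in Ldhc-zero cells (0 to 0.166%). The share was above that of every Ldhc-zero cell in 41 of the 84 cells and above 1% in 4. Undifferentiated genes took a median of 0.126% (0 to 0.320%) against 0.152% (0 to 0.775%). Over the 84 cells both shares were weakly and inversely related (Pearson's r = -0.35, Spearman's rho = -0.20), as a description over cells that share libraries and differ in depth.

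**Figure D4:**
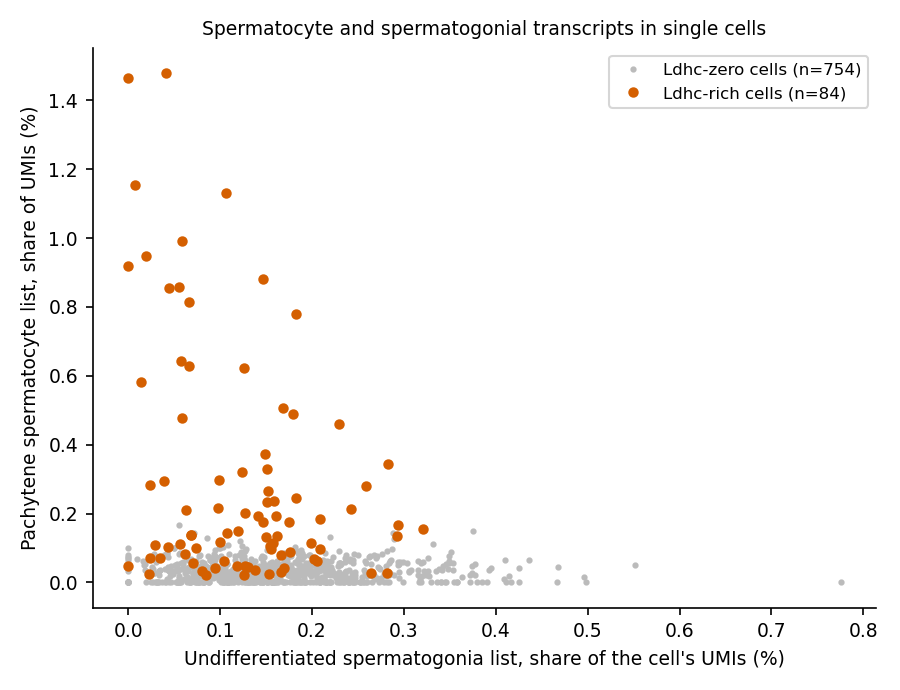
Each point is a cell, by the share of its UMIs (%) from the undifferentiated spermatogonia list and from the pachytene spermatocyte list. The 754 Ldhc-zero cells lie at or below 0.166% on the pachytene axis, and 41 of the 84 Ldhc-rich cells lie above it.

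The promoters of 4 genes are shown because the pachytene and axoneme genes moved together, and letters known from promoters of meiotic genes could be counted in them. They are RefSeq sequences on GRCm38.p6, from 250 bases before to 50 after the start, 5′ to 3′ on the gene's strand, and capitals mark every match on either strand of TGACGT (core of the cAMP response element) and TAACNG (core bound by MYB factors) in Ldhc, of GTTGCC (part of the X-box bound by RFX factors) in Mns1, and of GTTGCC and TAACNG in Spata4 and Pgam2. The 4 genes and the letters were chosen after values and matches were seen, and Rsph1 is not in the table. The first is Ldhc, chr7:46861013-46861312 (+ strand).
Ldhc: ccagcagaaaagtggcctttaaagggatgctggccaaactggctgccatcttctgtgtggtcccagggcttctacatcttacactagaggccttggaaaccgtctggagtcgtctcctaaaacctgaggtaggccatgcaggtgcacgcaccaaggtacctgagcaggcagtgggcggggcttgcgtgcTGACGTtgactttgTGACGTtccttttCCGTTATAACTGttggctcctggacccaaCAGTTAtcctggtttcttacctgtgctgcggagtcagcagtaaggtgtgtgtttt
Next are Spata4 (chr8:54600531-54600830, + strand), Mns1 (chr9:72438279-72438578, + strand) and Pgam2 (chr11:5803747-5804046, - strand).
Spata4: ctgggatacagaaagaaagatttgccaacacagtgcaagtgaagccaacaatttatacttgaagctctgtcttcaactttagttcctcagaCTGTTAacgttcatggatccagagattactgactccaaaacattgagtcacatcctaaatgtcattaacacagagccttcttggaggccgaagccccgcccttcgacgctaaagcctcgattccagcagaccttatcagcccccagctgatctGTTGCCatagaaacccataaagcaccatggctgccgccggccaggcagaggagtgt
Mns1: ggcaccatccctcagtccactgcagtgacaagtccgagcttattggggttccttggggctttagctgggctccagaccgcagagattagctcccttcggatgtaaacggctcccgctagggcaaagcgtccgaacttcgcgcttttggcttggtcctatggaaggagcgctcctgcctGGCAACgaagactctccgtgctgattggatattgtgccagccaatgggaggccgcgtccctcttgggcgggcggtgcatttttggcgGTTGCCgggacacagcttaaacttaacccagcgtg
Pgam2: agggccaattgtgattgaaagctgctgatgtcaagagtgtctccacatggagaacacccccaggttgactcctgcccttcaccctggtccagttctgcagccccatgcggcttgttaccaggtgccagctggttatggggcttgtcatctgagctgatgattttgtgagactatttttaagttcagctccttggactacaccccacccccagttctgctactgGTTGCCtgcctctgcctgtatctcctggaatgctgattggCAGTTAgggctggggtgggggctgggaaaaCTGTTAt

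In Ldhc, TGACGT began 61 and 47 bases before the start and TAACNG 34, 28 and 5 bases before it. In Spata4, GTTGCC began 6 and TAACNG 159 bases before the start. Promoters were found for 745 of the 1029 higher genes. TAACNG was in 28.5% of their 967 promoters, in 37.9% of the 264 promoters of genes higher by over 3 on the log2 scale, in 13.6% of 273 promoters of lower genes, in 19.8% of those of all genes tested and in 23.3% of all 32851 promoters. GTTGCC was in 19.6, 26.1, 10.3, 13.3 and 12.5% in the same order. TGACGT went the other way, at 9.82, 6.06, 10.3, 13.0 and 7.51%. Base composition moved with these shares, since GGGCGG was in 57.2, 40.2, 70.0, 65.2 and 35.7%, and its part was not tested. A match is a description of letters and not of binding.

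Against the 82 Ldhc-rich cells with spermatid transcripts, the 84 cells held fewer transcripts of spermatid genes, as the rule requires, and more of some replication genes, none of which was called without the deepest cells. Sertoli genes gave 0.0188% of their UMIs against 0.0221% in the cells with spermatid transcripts, and peritubular genes 6 UMIs against 137, and the part of these in the result was not tested. The rule separated the classes by spermatid UMIs, so the direction of spermatid genes was set by it. In the same 4 libraries and the same test, 5136 genes were compared, 242 were higher (4.71%) and 841 lower (16.4%) in the cells without spermatid transcripts. Higher calls fell to 9 without cells over 4 times the median depth, 8 after thinning, 35 by DESeq2, and 135, 145 and 141 without Plzf +/+ plate 1, Plzf +/+ plate 2 or Plzf lu/lu plate 3. Lower calls were 307, 92 and 549 under the first 3 of these.

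Spermatid genes outside the rule were scarce but not absent in the 84 cells: the list gave 0.0682% of UMIs, against 0.597% in those cells and 0.0098% in Ldhc-zero cells. Of 20 such genes 18 passed the filter, with a median of -3.49 against 0.06 over all genes, given as a description since the rule and the filter set their direction. Cdrt4 and Iqcf1 had 0 UMIs in the sums of the 80 cells fitted and 194 and 138 in the 80 of the other class, and Spata3, Fam166a and Wbscr25 had 1 each against 376, 149 and 121. Gapdhs, the sperm glyceraldehyde phosphate dehydrogenase, stood at 13.4 ± 16.8 against 1077 ± 465 CPM (SD, n = 4, log2 fold change -6.04). H2afb1, a short H2A variant, had 2 UMIs against 282, and Cabs1, a calcium binding protein of the sperm tail, 4 against 381.

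The pachytene and axoneme genes were lower too, but by far less. Of 13 pachytene genes tested 9 were lower and 0 higher (median -0.78), and of 35 cilia genes 21 were lower and 0 higher (median -0.87), against 16.4% of all genes lower. Without the deep cells 3 of 13 and 7 of 23 were lower (307 of all 3476 genes), and after thinning 1 of 4 and 2 of 6 (92 of 687). Without Plzf +/+ plate 2 the counts were 6 of 13 and 13 of 31 (587 of 4511). Meig1 stood at 1847 ± 194 against 3170 ± 1125 CPM (log2 fold change -0.73 ± 0.17, n = 4, edgeR adjusted p = 0.00466), and the call was lost with at least 5 Ldhc UMIs (adjusted p = 0.169). Crisp2 stood at 1122 ± 292 against 3056 ± 974, and Ybx3 at 639 ± 139 against 1115 ± 406. Dnah8 was at 358 ± 214 and 354 ± 167 CPM and did not pass. Smc1b, Sycp1, Sycp2 and Tex15 did not pass either, at adjusted p of 0.243 to 0.625.

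Of 18 S phase genes tested, 8 were higher in the cells without spermatid transcripts (44.4%, against 4.71% of all genes) and 0 lower, with a median of 0.49. Without cells over 4 times the median depth 0 of 14 were higher (9 of all 3476 genes), and after thinning 0 of 3 (8 of 687). By DESeq2 2 of 18 were higher (35 of 5136) and without Plzf lu/lu plate 3 5 of 19 (141 of 5439). Mcm2, a subunit of the replicative helicase, stood at 289 ± 46.7 against 152 ± 37.7 CPM (log2 fold change 0.99 ± 0.24, n = 4, edgeR adjusted p = 0.00660), without overlap, and Rpa2, which binds single-stranded DNA, at 318 ± 61.1 against 193 ± 59.6. The call of Mcm2 held in 10 of 11 alternatives and that of Rpa2 in 4 of 12. Clspn, a replication checkpoint adaptor, was among the 12 genes with the largest increase (1.31 ± 0.33, edgeR adjusted p = 0.00892). They also held Klf8, Mtmr7, Iars, Tmtc4, Prr14l, Fam222b, Igsf3, Gabpb2, Fam50a and Epb4.1l4b, with changes of 1.31 to 1.76. Among these, Iars was called in 11 of 11 alternatives, Fam50a in 6 of 10, Prr14l in 4 of 6, and Fam222b and Gabpb2 in 2 of 6 each. Iars, the isoleucine tRNA synthetase of the cytosol, stood at 154 ± 24.1 against 53.5 ± 18.8 CPM. None of 8 undifferentiated genes tested passed (edgeR, median 0.51), Gfra1 being at 190 ± 44.9 against 139 ± 5.44 CPM (adjusted p = 0.146), and of 5 differentiating genes tested 1 was higher, Crabp1, a retinoid binding protein (1.08 ± 0.27, edgeR adjusted p = 0.00792). Its call held in 7 of 11 alternatives (adjusted p up to 0.243), and 0 of the 5 genes passed by DESeq2, without the replicate block, without the deepest cells or with every library.

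**Figure D5:**
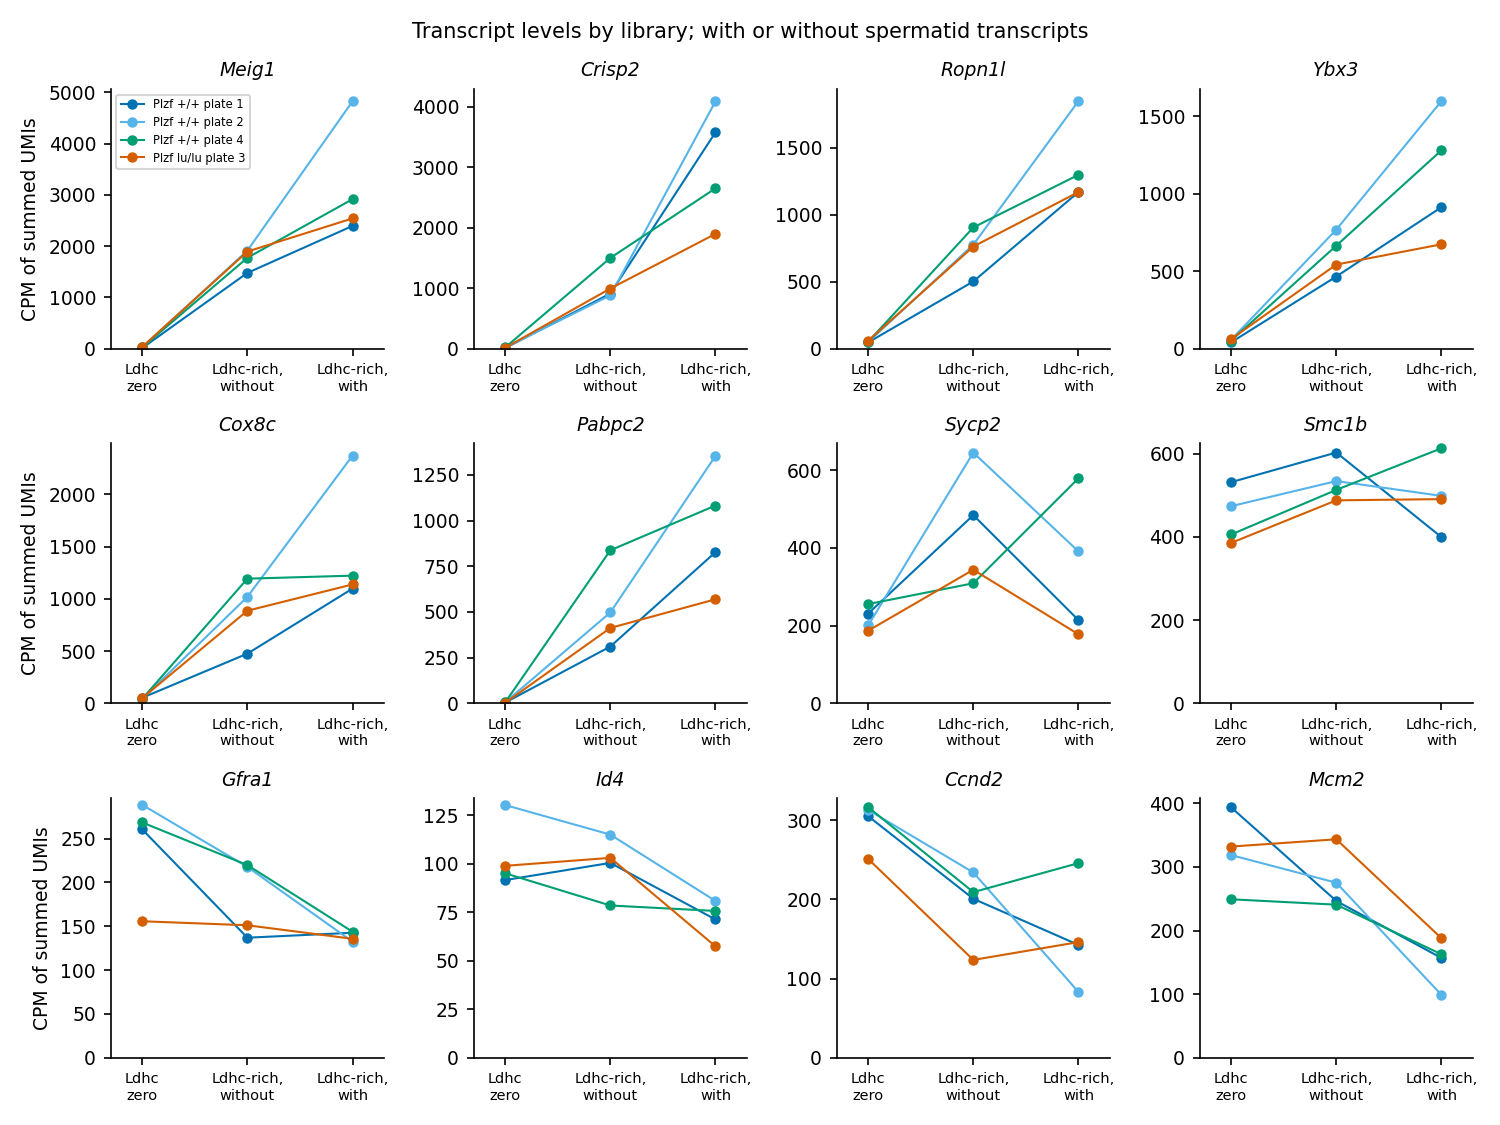
CPM of summed, TMM-scaled UMIs for 12 genes in Ldhc-zero cells and in Ldhc-rich cells without and with spermatid transcripts, with 1 line for each of 4 libraries and TMM factors set separately for the right-hand class. Meig1, Crisp2, Ropn1l and Ybx3 climb from left to right in every library, Gfra1 runs from 156 to 289 on the left, and Mcm2 is lowest on the right.

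No difference between genotypes in the share of such cells was detectable with these libraries. Their share was 7.46 ± 3.54% (SD, n = 3 libraries) in Plzf +/+ and 7.49 ± 4.29% (n = 2) in Plzf lu/lu, a difference of 0.0374 percentage points (two-sided exact permutation test, p = 1.0, where 3 against 2 libraries cannot go below 0.1). The difference depended on single libraries, at -1.96 points without Plzf +/+ plate 1, 3.07 without Plzf lu/lu plate 3 and -2.997 without Plzf lu/lu plate 4. On plate 4, which held both genotypes, the shares were 8.66% of 277 Plzf +/+ cells and 10.5% of 38 Plzf lu/lu cells, with intervals of 5.63 to 12.6% and 2.94 to 24.8%. The Clu limit acted unevenly on the libraries. Of the 43 cells with at least 3 UMIs of both Ldhc and Clu, 26 came from Plzf lu/lu plate 3, and 5, 5, 7 and 0 from Plzf +/+ plates 1, 2 and 4 and Plzf lu/lu plate 4. Among the 43, 20 lay under the spermatid limit and so were left out by the Clu limit alone, 12 of them from Plzf lu/lu plate 3. Without that limit, an alternative chosen after seeing the data, the shares were 8.28% of cells in Plzf lu/lu plate 3 and 8.34 ± 3.52% (n = 3) in Plzf +/+ against 9.40 ± 1.59% (n = 2) in Plzf lu/lu, a difference of 1.06 points (two-sided exact permutation test, p = 0.9).

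Within the Ldhc-rich cells, the genotypes could be compared with 3 Plzf +/+ libraries and only plate 3 of Plzf lu/lu, whose spread was assumed to be that of the others. In this fit genotype and plate 3 cannot be told apart, so its calls are a description. Of 5873 genes, 12 were higher (0.204%) and 5 lower (0.0851%) in Plzf lu/lu, and by DESeq2 2 and 1. Leaving out Plzf +/+ plate 1 gave 23 and 9, and leaving out Plzf +/+ plate 2 or Plzf +/+ plate 4 gave 7 and 2 each. Malat1, a nuclear long noncoding RNA, stood at 2320, 2017 and 1984 CPM in Plzf +/+ plates 1, 2 and 4 and at 452 in Plzf lu/lu plate 3 (log2 fold change -2.22). It was not particular to these cells, since in summed Ldhc-zero cells it stood at 2102 to 2762 CPM in Plzf +/+ and at 590 and 654 in lu/lu on plates 3 and 4, as CPM of sums without TMM scaling. The 4 Ldhc-rich Plzf lu/lu cells of plate 4 had 1126 CPM (44 UMIs) against 1701 in the Plzf +/+ cells of that plate.

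Other genes named in this comparison were Egr4, an immediate early factor (258 CPM in Plzf lu/lu plate 3 against 43.7 to 146 in Plzf +/+), Enc1 (187 against 19.5 to 34.3), the desaturase gene Scd2 (179 against 27.3 to 47.2), Atp5g1, of the ATP synthase c ring (567 against 159 to 331), and Sdc4, syndecan 4 (739 against 283 to 331), all higher. As CPM of sums, each also stood higher in the 4 Plzf lu/lu cells of plate 4 (102 for Enc1, 282 for Scd2, 154 for Egr4, 435 for Atp5g1 and 742 for Sdc4) than in every Plzf +/+ library, where the highest values were 31.0, 42.7, 125, 284 and 284. They were not particular to the Ldhc-rich cells, since in the Ldhc-zero cells of Plzf lu/lu plate 3 each also stood above every Plzf +/+ library (Egr4 at 235 against 71.1 to 92.9 CPM, Sdc4 at 665 against 379 to 498). Ppfibp2 was lower (21.5 against 78.0 to 210, and 37.0 against 116 to 141 in Ldhc-zero cells). Kif3b, a kinesin of the axonemal transport motor, had 0 UMIs in Plzf lu/lu plate 3. In the Plzf lu/lu cells of plate 4 it had 4 UMIs, or 102 CPM of sums, above the 50.2 to 89.2 of the Plzf +/+ libraries. Every gene named in this comparison lost its call under some alternatives, Kif3b and Ppfibp2 most often. With every library included, 4 genes were higher and 0 lower by edgeR, with 331 at an unadjusted p under 0.05. As a description, Rsph1 stood at 653 CPM in Plzf lu/lu plate 3, below the 863 to 924 of the Plzf +/+ libraries, and Ldhc at 2993, within their 1988 to 4138. A model with a genotype term for the difference between Ldhc-rich and Ldhc-zero cells called 0 of 5150 genes (edgeR, 250 at an unadjusted p under 0.05).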

How the data were processed

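Single tdTomato+ testis cells were sorted into wells of 384 well plates, and RNA was barcoded per well, pooled per plate and sequenced. The authors deposited raw UMI counts per gene and cell, not normalised, in 1 table per genotype. The submitters' processing notes name bcl2fastq 2.18.0.12, Picard 2.9.3, STAR 2.5.4a and GRCm38. How cells were filtered before deposit, and whether counting used strand, is not given in the sources used here. Genes listed in a single table (of 26041 symbols, 23344 were in both) were set to 0 in the other. Cells were tied to plate and genotype by the endings of their column names. No column of the authors' own comparisons was present, and 0 columns of counts were left out.

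UMIs were summed per library and class, in libraries with at least 5 cells of each, and tested with edgeR 4.0.16 (TMM, filterByExpr, quasi-likelihood F test, library as a block) in R 4.3.3, with Benjamini-Hochberg adjustment. DESeq2 1.42.0 was an alternative. CPM values carry TMM scaling unless given as CPM of sums or per cell. Depth per library and class is given with the results, and intervals and floors of 3 UMIs cover counting error only. Thinning drew 2000 UMIs per cell without replacement (seed 1), leaving out shallower cells. No doublet caller was run. Scripts were tested on simulated data. Genes were named by a rule: the rule genes and markers, then the 12 genes with the largest positive and 8 with the largest negative change (5 and 5 between genotypes) among those called, of at least 50 CPM in the higher class and of 1 direction in every library, without predicted, clone, mitochondrial and ribosomal protein genes, then up to 4 abundant genes of each of 16 lists. The members and lists were chosen with earlier results of these data known. Gene starts and promoters came from RefSeq (GRCm38.p6), and 9 motifs were searched. One gene that the rule names is not reported here.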

Additional observations from a re-analysis of the deposited data

Results flagged for a closer look

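Each of 60 log2 differences of named genes between Ldhc-rich and Ldhc-zero cells, and 57 between Ldhc-rich cells without and with spermatid transcripts, was checked for a library far from the other 3 (log2 of CPM + 1), which chance gives for about 1 in 20. This held for 4. Ibtk differed by -5.54 in Plzf +/+ plate 1, where it had 0 CPM in the Ldhc-rich cells, and by -1.16 to -0.64 in the others. Dnah8 differed by 3.52 in Plzf +/+ plate 2 and by 2.502 to 2.58 in the others. Cdrt4, between cells without and with spermatid transcripts, differed by -8.26 in Plzf +/+ plate 2 and by -6.85 to -6.72 elsewhere, with 0 UMIs in the Ldhc-rich cells of these 4 libraries. Ybx3 differed by -0.27 in Plzf lu/lu plate 3 in that comparison and by -0.98 to -0.88 in the others.

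Cells with 1 or 2 Ldhc UMIs entered no test. In the 55 cells with 2, the markers of the Ldhc-rich cells already stood above the Ldhc-zero cells, at 34.3 CPM of summed UMIs for Rsph1 (11.8 in Ldhc-zero cells), 31.8 for Dmrtb1 (8.22) and 31.8 for Spink2 (8.01). In the 186 cells with 1 UMI they stood at 23.9, 9.70 and 11.2.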

How the results depend on the processing

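Under the alternatives, the list medians of pachytene and axoneme genes were 3.38 to 5.28 and 2.33 to 4.55. Most of these fits took in genes scarce in Ldhc-zero cells only through the Ldhc-rich cells, and all reused the same cells. The medians are therefore a description. Without the filter they were 3.63 and 3.20, and after thinning only 8 and 6 genes were tested. Higher calls against Ldhc-zero cells (1029) were 641 with every library, 169 after thinning to 2000 UMIs, 487 with Ldhc-zero cells matched on depth and 256 under 3 spermatid UMIs, and 875 to 1228 without single libraries. Lower calls (301) were 23 by DESeq2 (815 higher), 815 without the filter on low counts, 111 without cells over 4 times the median UMIs, 189 with every library, 92 without the replicate block, 19 after thinning, 90 with matched cells and 7 under 3 spermatid UMIs, and 109 to 228 without single libraries. Of the alternatives chosen after seeing the data, lower calls were 162 against every Ldhc-zero cell, 193 without cells with Sertoli or T and NK cell UMIs (864 higher) and 172 with a Gfra1 UMI. Against cells with spermatid transcripts, higher calls (242) were 35 by DESeq2, 131 without the filter, 9 without deep cells, 117 without the replicate block and 8 after thinning, and 135 to 328 without single libraries, and lower calls (841) were 549, 1424 (no filter), 307 (no deep cells), 92 (thinned) and 587 to 753. Between genotypes, higher calls (12) were 2 by DESeq2, 4 with every library and 7 to 23 without single libraries, and lower calls (5) were 1 by DESeq2, 3 without the filter, 10 without deep cells, 3 with at least 5 Ldhc UMIs, 0 with every library and 2 to 9 without single libraries. The difference in share between genotypes was -1.03 points with at least 5 Ldhc UMIs, -0.0051 without deep cells and -2.997 to 3.07 without single libraries. The block is the library, whose 2 classes come from the same plate and genotype. For named genes called against Ldhc-zero cells, 513 values under alternatives kept the call, 68 lost it and none changed sign. Against cells with spermatid transcripts 275 kept it and 82 lost it, and between genotypes 39 and 33. The first 2 tallies include genes whose direction or call the rule or the filter set. They are therefore a description and no support. No paired analysis was possible because the genotypes share only plate 4, whose lu/lu cells were too few. The causes were not tested, beyond fewer cells or UMIs entering the thinned and restricted fits. The 84 cells, and 4 in Plzf lu/lu plate 4, limit what could be called.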
